A study of Mus musculus with 6 samples.

Results

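Hepatokines are proteins that the liver secretes into the blood and that act on other tissues. The 8 genes described here, chosen by name, encode Fgf21, Gdf15, Angptl4, Lect2, Ahsg, Fetub, Inhbe and Rbp4. They were matched to array probe sets that carry a single gene symbol, and 7 of the 8 were measured among 12393 genes tested. Gdf15, a stress-induced hormone that curbs food intake, matched no such probe set and was not analysed here. Angptl4 had 2 probe sets, and the other 6 measured genes had 1 each. Where a gene had more than 1, the probe set with the highest mean over the 6 arrays stands for it.

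The livers came from 6 mice of a C57 background, all labelled Ppara KO and all 1 month old. In 3 of them (TFEB-injected) an adenoviral vector had been given to make the liver overexpress TFEB, and the other 3 (not-injected) were not injected. Replicates 1, 2 and 3 are called mice N1, N2 and N3 where not-injected and T1, T2 and T3 where injected, when 1 is left out of a fit. Every mouse of both groups therefore carried the Ppara knockout. No group received an empty vector, so TFEB, the adenovirus and the injection cannot be told apart. The sex of the mice, the time from injection to sampling, the species of the vector's TFEB and the deleted part of Ppara are not stated in the labels. Each array is 1 mouse, and the values are deposited log2 expression levels, on which a difference of 1 is a doubling. Levels of different genes rest on different probes and are not compared.

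TFEB is a transcription factor that binds E-box elements in genes for lysosomes and autophagy and, in fasted liver, drives lipid breakdown. PPAR-alpha, the product of Ppara, is the nuclear receptor through which fatty acids switch on oxidation genes during fasting, and Fgf21 and Angptl4 are among its classical liver targets. Fgf21, Gdf15 and Inhbe are also known as targets of ATF4, the transcription factor of the integrated stress response. The comparison asks which of these secreted signals differ between the livers of injected and not-injected mice that lack Ppara.

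Array correlations across the tested genes were 0.998 to 0.999 within the not-injected group, 0.995 to 0.998 within the TFEB-injected group and 0.989 to 0.993 between them. The Tfeb probe set stood at 7.55 ± 0.07 (SD, n = 3) and 7.59 ± 0.12 in not-injected and injected livers, and the Ppara probe set at 8.95 ± 0.07 and 9.08 ± 0.04. Neither passed the test (adjusted p = 0.777 and 0.149), and neither checks the labels, since the part of the transcript at issue is unknown. Of 10 measured hepatocyte markers, with levels of 13.6 to 15.0, 0 were called in either direction, and their median log2 change was -0.00. The highest deposited value was 15.20, and whether the brightest of these markers could still show a change was not tested. Of 12 macrophage markers 8 were called higher, with a median of 0.47, and of 10 endothelial markers 2 were called higher, with a median of 0.01. The macrophage count of 8 was 6 when N2, N3 or T2 was left out and 11 when T3 was. The mean level of the macrophage markers ran from 8.96 to 9.03 in not-injected livers and stood at 9.61, 9.53 and 9.26 in mice T1, T2 and T3. The mean of the endothelial markers ran from 8.09 to 8.15 and was 8.45, 8.38 and 8.22 in the same 3 livers. The part of these cells in the results was not tested. In bulk liver RNA a change in the number of cells of a type and a change in RNA per cell cannot be told apart. Of 9 stellate cell markers 1 was called higher and 3 lower, of 7 adipocyte markers 1 higher and 0 lower, and of 8 muscle markers 0 in either direction. The marker of smallest p was Cd5l (0.63 ± 0.05) for macrophages and Stab2 (1.42 ± 0.05) for endothelium. For hepatocytes it was Cps1 (-0.14 ± 0.05) and for muscle Mylpf (-0.12 ± 0.06), neither of them called. The call among the adipocyte markers, at levels of 3.90 to 8.28, was Cidec, for a lipid droplet protein also made in fatty liver (log2 change 0.43 ± 0.11). Leaving out N1, N2, N3 or T2 ended that call (highest adjusted p = 0.105). The stellate count of 4 was 2 when N1 was left out and 1 when N2, N3 or T2 was, where Col3a1, for a fibrillar collagen (0.32 ± 0.05), was the marker still called. A second Col3a1 probe set gave 0.23 and did not pass (adjusted p = 0.0912).

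The promoters of 4 members are printed: Fgf21 and Inhbe because they hold the same 8-letter match to the ATF4 motif, and Lect2 and Fetub because they are the members that fell. They come from RefSeq (build GRCm38.p6), run from 250 bases before to 50 after the gene start on the gene's own strand, and 7 of the 8 members, all but Angptl4, had such a window. Capitals mark a match to CACGTG, the core of the element that TFEB binds, or to TGATGNAA, the core of the element that ATF4 binds, searched on both strands.
Fgf21 promoter, chr7:45615441-45615740, minus strand: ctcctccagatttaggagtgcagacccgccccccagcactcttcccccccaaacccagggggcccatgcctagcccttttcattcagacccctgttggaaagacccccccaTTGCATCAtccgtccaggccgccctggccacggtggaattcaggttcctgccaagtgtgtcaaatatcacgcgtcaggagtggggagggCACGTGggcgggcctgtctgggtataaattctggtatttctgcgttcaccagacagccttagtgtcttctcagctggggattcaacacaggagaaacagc
Inhbe promoter, chr10:127351799-127352098, minus strand: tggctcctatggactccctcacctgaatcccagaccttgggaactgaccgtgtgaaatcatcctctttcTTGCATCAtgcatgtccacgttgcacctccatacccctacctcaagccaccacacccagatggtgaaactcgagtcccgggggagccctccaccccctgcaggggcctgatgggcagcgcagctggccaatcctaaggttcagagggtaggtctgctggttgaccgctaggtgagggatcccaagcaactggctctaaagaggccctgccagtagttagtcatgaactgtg
Lect2 promoter, chr13:56548489-56548788, minus strand: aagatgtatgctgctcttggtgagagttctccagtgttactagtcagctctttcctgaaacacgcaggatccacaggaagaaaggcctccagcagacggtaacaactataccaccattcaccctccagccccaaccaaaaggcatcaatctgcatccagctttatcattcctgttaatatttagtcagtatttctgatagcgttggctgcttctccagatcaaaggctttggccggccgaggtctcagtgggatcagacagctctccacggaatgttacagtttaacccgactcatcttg
Fetub promoter, chr16:22918132-22918431, plus strand: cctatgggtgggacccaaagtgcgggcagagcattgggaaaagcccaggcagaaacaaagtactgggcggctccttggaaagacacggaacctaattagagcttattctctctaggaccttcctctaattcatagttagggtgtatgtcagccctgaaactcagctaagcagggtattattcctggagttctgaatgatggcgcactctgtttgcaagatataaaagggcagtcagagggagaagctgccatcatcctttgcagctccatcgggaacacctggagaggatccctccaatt

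The Fgf21 window held CACGTG at position -50 relative to the gene start and the reverse of TGATGNAA at -139. The Inhbe window held the same 8 letters, TTGCATCA, at -181, so these 2 genes share a copy of that core in the same orientation. Of the 2 windows of Gdf15, 1 held CACGTG at -83. The windows of Lect2, Fetub and Ahsg held none of these letters. Fetub had 2 windows, of which 1 is printed above. Of the 2 windows of Rbp4, 1 held TGATGAAA at -76. CACGTG occurred in 7.15% and TGATGNAA in 3.97% of the 32851 windows in the table. The longer TFEB core TCACGTGA, which contains CACGTG, occurred in 0.974%, and a pair of AGGTCA motifs 1 base apart, the form that PPAR-alpha binds with its partner RXR, in 0.0396%. None of the windows of these 7 members held either of these. These matches are letters in a window and were not tested for binding.

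Among the 7 measured hepatokines, Lect2 and Fetub fell, Angptl4 rose, and Fgf21, Ahsg, Inhbe and Rbp4 did not pass the test. With limma and Benjamini-Hochberg adjustment over all genes, 9.99% of the tested genes were called higher and 7.92% lower at an adjusted p under 0.05. The counts of 1 and 2 among 7 members, and those of every gene list in this report, stand beside those shares. The median log2 change of the 7 was -0.07, against -0.01 over all genes. In 5 members the 3 injected livers all lay outside the range of the 3 not-injected ones, as they did in 37.1% of tested genes.

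**Figure D1:**
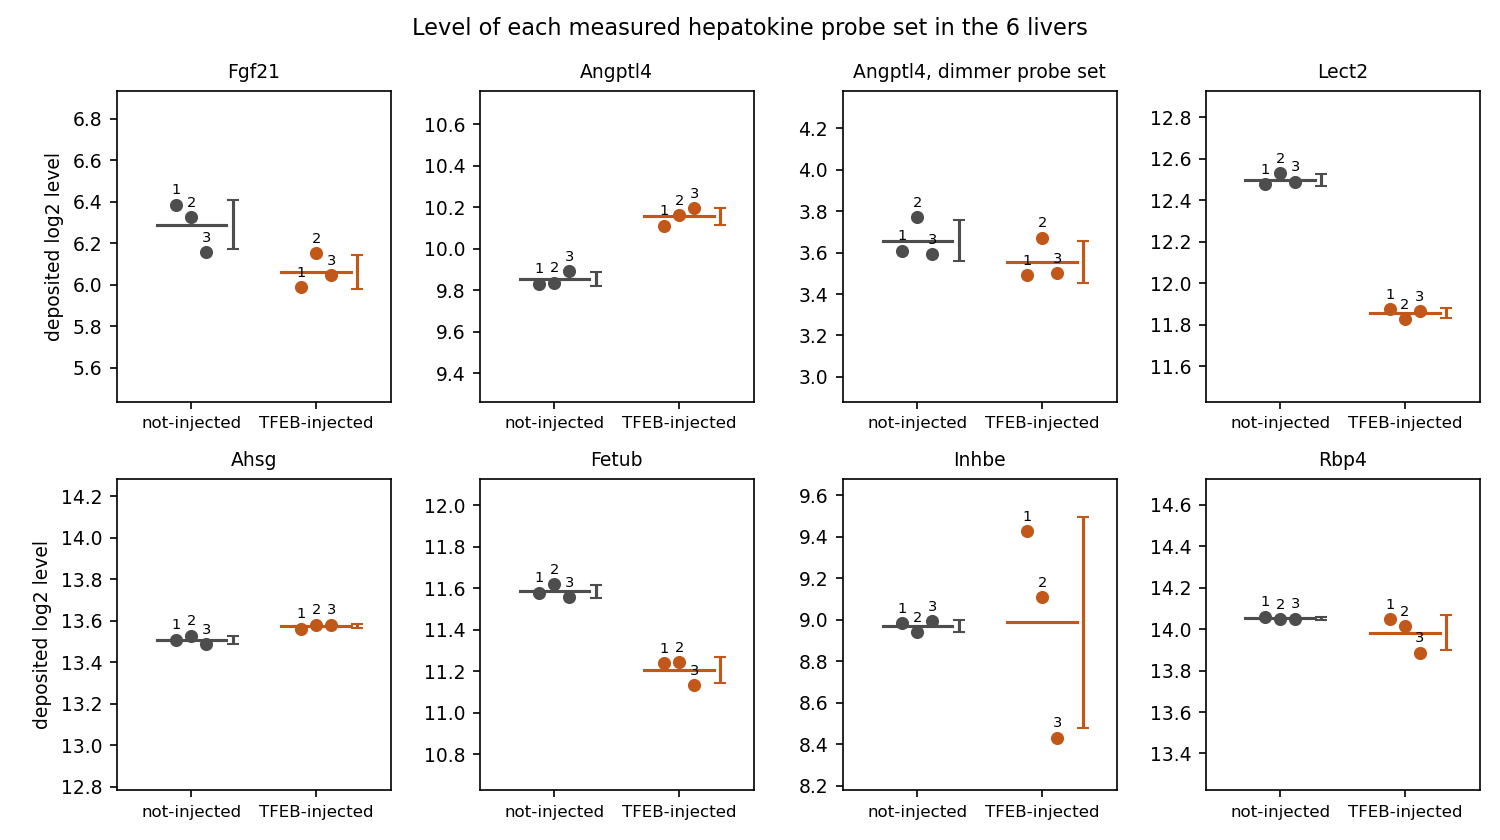
Deposited log2 level (vertical axis, every panel spanning the same number of log2 units) of each measured hepatokine probe set in the 3 not-injected (grey) and 3 TFEB-injected (orange) livers. Points are single mice numbered by replicate, the horizontal line is the mean and the bar beside it ± 1 SD. The Lect2 groups lie farthest apart, and the injected livers are widely spread for Inhbe, from 8.43 to 9.43.

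Lect2, a chemotactic hepatokine that promotes insulin resistance in muscle, showed the largest change of the 7. Its level was 12.48, 12.53 and 12.49 in not-injected replicates 1, 2 and 3, and 11.88, 11.83 and 11.86 in TFEB-injected replicates 1, 2 and 3. The groups were far apart and each was tight, with a range of 0.05 among the not-injected and 0.05 among the injected livers. The log2 change was -0.64 ± 0.04 (SE), or 1.56-fold lower, with an adjusted p of 1.83e-04. Its size exceeded that of 97.1% of tested genes, and it ranked 110 among the 981 genes called lower. The genes whose profile over the 6 arrays lay closest to it were B3galt1, for a galactosyltransferase (root mean square difference 0.03), and Car8, for a carbonic anhydrase-related protein (0.03). In all, 52 genes lay within 0.1 of the Lect2 profile, each set to 0 at its own not-injected mean.

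Of the 2 fetuins, Fetub passed the test and Ahsg did not. Fetub encodes fetuin-B, a hepatokine tied to glucose intolerance that also keeps the egg coat open to sperm by inhibiting a protease. Its level was 11.58, 11.62 and 11.56 in not-injected and 11.24, 11.24 and 11.13 in TFEB-injected replicates 1, 2 and 3. All 3 injected livers were below all not-injected ones, the third the lowest. Fetub fell by 0.38 ± 0.05 on the log2 scale, or 1.30-fold (adjusted p = 0.00239), ranking 332 among the 981 genes called lower. Its closest profiles were those of Fam234b (root mean square difference 0.01) and Cers2, for a ceramide synthase (0.02), and 328 genes lay within 0.1 of it.

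Ahsg encodes fetuin-A, an abundant plasma protein that inhibits insulin receptor signalling and binds calcium phosphate. It stood at 13.51, 13.53 and 13.49 in not-injected and 13.56, 13.58 and 13.58 in TFEB-injected replicates 1, 2 and 3. The groups did not overlap, but the difference was small, with a log2 change of 0.07 ± 0.04 that did not pass (adjusted p = 0.331). Its 95% interval, from -0.03 to 0.17, does not reach the size of the Fetub change. The injected livers differed from each other by 0.02, a smaller range than in all but 1.94% of tested genes. Set against Ahsg within each array, Fetub was lower in injected livers by a log2 difference of -0.45 (SD 0.07 among injected and 0.01 among not-injected livers). The exact two-sided permutation p was 0.1, the smallest that 3 against 3 allows.

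Ahsg and Fetub are neighbours on chromosome 16 in the RefSeq gene order, followed by Hrg, Kng2 and Kng1, all of the cystatin superfamily of protease inhibitors and their relatives. Of 5 measured genes of that superfamily other than the 2 fetuins, 1 was called higher and 1 lower, with a median of 0.08. Hrg, for histidine-rich glycoprotein, had a log2 change of -0.17 ± 0.04 (adjusted p = 0.0346), and leaving out any 1 of the 6 mice ended the call (highest adjusted p = 0.115). Cstb, for the intracellular inhibitor cystatin B, rose by 0.32 ± 0.06, and leaving out N1, N2 or T2 ended the call (highest adjusted p = 0.0583). A second Cstb probe set gave 0.34 (adjusted p = 0.0388). Kng1, for a kininogen, had a log2 change of 0.09 ± 0.04 that did not pass (adjusted p = 0.200), and its second probe set gave -0.09.

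Angptl4 encodes an inhibitor of lipoprotein lipase, the enzyme that frees fatty acids from circulating triglyceride. Its brighter probe set read 9.83, 9.84 and 9.89 in not-injected and 10.11, 10.16 and 10.19 in TFEB-injected replicates 1, 2 and 3. The groups did not overlap, and the log2 change was 0.30 ± 0.05, or 1.23-fold higher (adjusted p = 0.00471). The second probe set read 3.61, 3.77 and 3.59 in not-injected and 3.49, 3.67 and 3.50 in injected livers, close to the lowest value of the table, 3.08. It gave -0.10 ± 0.07 (adjusted p = 0.404 over 20380 probe sets), so the call rests on the brighter probe set. That probe set ends in _s_at, a class that can detect related transcripts. Angptl4 ranked 774 among the 1238 genes called higher, and 790 genes lay within 0.1 of its profile, the closest being Atp5g1, for a subunit of ATP synthase, and Oip5os1, a non-coding RNA.

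Fgf21 encodes a fasting hormone that raises fat oxidation and insulin sensitivity through a receptor made of beta-Klotho, the product of Klb, and an FGF receptor. Its level was 6.39, 6.33 and 6.16 in not-injected and 5.99, 6.15 and 6.05 in TFEB-injected replicates 1, 2 and 3. The groups touched without overlapping, since not-injected replicate 3 and TFEB-injected replicate 2 differed by less than 0.01. The log2 change was -0.23 ± 0.07, with a 95% interval for this gene alone of -0.40 to -0.06, and it did not pass after adjustment over all genes (adjusted p = 0.0756). With N3, the lowest of its group, left out, it was -0.29 with an adjusted p of 0.0402. Leaving out any other mouse gave -0.27 to -0.18 and no call (adjusted p = 0.0933 to 0.220). A rise of Fgf21 in the injected livers was not detected in these data. The background correction and summary used for these arrays compress changes at low levels, so the size may be understated.

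**Figure D2:**
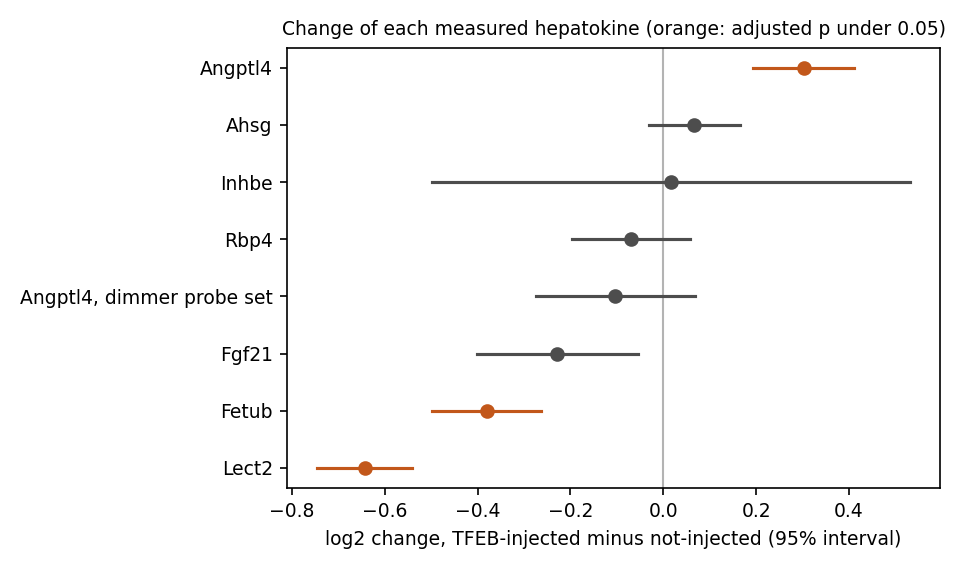
Log2 change (horizontal axis, TFEB-injected minus not-injected, n = 3 each) of each measured hepatokine and of the second Angptl4 probe set, with the 95% interval of the limma fit. Orange marks an adjusted p under 0.05, reached by Lect2 (-0.64), Fetub (-0.38) and the brighter Angptl4 probe set (0.30), and the interval of Inhbe is the widest, from -0.50 to 0.53.

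Inhbe encodes the activin E subunit, a hepatocyte factor that restrains fat breakdown in adipose tissue. In not-injected livers it stood at 8.98, 8.94 and 8.99, a range of 0.05. In TFEB-injected replicates 1, 2 and 3 it stood at 9.43, 9.11 and 8.43, a range of 0.995. The first 2 injected livers were above every not-injected liver and the third was below every one. The mean difference was 0.02 ± 0.22 (adjusted p = 0.971), with an interval from -0.50 to 0.53 that allows a change in either direction. It was -0.20 with T1 left out, -0.04 with T2 left out and 0.30 with T3 left out, and none of these passed. Only 55 of the 12393 tested genes had a wider range among the injected livers, while 19.2% had a narrower range than Inhbe among the not-injected ones. The mean of the macrophage markers, 9.61, 9.53 and 9.26, had the same order over the injected livers. So had the means of the hepatocyte (14.40, 14.38 and 14.36), endothelial and stellate markers. The means of the PPAR-alpha targets and of the integrated stress response genes listed below had the reverse order. An order of 3 livers thus recurred between lists, and the part of any of them in the Inhbe values was not tested.

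**Figure D3:**
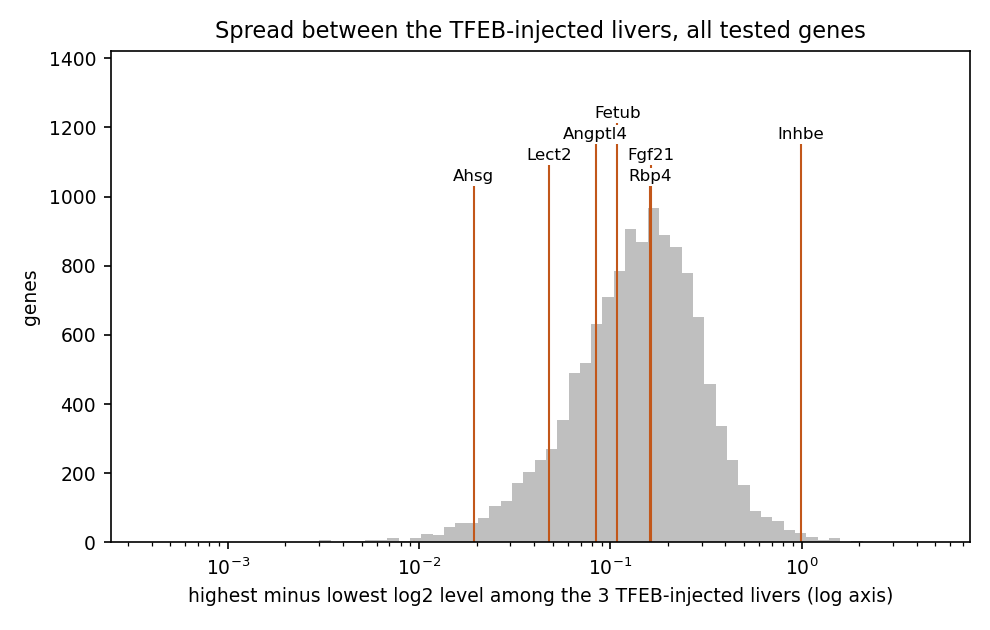
Number of tested genes (vertical axis) by the difference between the highest and the lowest log2 level among the 3 TFEB-injected livers (horizontal axis, log scale). Orange lines mark the 7 measured hepatokines, from Ahsg at 0.02 to Inhbe at 0.995, which only 55 genes exceeded.

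Rbp4 encodes the plasma carrier that brings retinol from the liver to other tissues and is linked to insulin resistance. Its level was 14.06, 14.05 and 14.05 in not-injected and 14.05, 14.01 and 13.89 in TFEB-injected replicates 1, 2 and 3. The groups overlapped, and the third injected liver was the lowest. The log2 change was -0.07 ± 0.05 (adjusted p = 0.437), with a 95% interval of -0.20 to 0.06. Ttr, for transthyretin, which holds the Rbp4-retinol complex in the blood, had a log2 change of -0.00 ± 0.04 (adjusted p = 0.968). It stood at 14.87 in both groups, near the highest deposited value of 15.20. Whether a signal that high can still show a change was not tested.

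Genes through which these signals act were also read in the liver, where Fgf21 and Inhbe can have local effects. Of 18 measured receptor and partner genes, 2 rose and 6 fell, with a median of -0.07. Klb read 9.66, 9.74 and 9.66 in not-injected and 9.20, 9.12 and 8.86 in TFEB-injected replicates 1, 2 and 3, without overlap. It fell by 0.62 ± 0.09 on the log2 scale (adjusted p = 0.00310), while a second Klb probe set gave 0.05 (adjusted p = 0.524). Fgfr4, for the FGF receptor of hepatocytes that pairs with beta-Klotho, fell by 0.49 ± 0.06 on its brightest probe set (adjusted p = 0.00225). The other 4 Fgfr4 probe sets gave -0.18, -0.07, -0.09 and 0.03, none of them past the threshold. Fgfr3 and Fgfr1, named here after their values were seen, fell by 0.75 ± 0.13 and 0.46 ± 0.08, with a second probe set at -0.14 and -0.07 that did not pass. Fgfr2 rose by 0.31 ± 0.07, with a second probe set at 0.22 (adjusted p = 0.0266). Leaving out N2, N3 or T2 ended the call of the brighter one (highest adjusted p = 0.0723).

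Lpl, for lipoprotein lipase, the target of Angptl4, rose on both of its probe sets. The brighter one read 9.11, 9.27 and 9.10 in not-injected and 10.02, 9.91 and 9.73 in TFEB-injected livers. The log2 changes were 0.72 ± 0.09 (adjusted p = 0.00150) and, on the second, 0.54 (adjusted p = 0.00375). Lmf1, for a chaperone that matures the lipase, had a log2 change of -0.13 ± 0.06 that did not pass (adjusted p = 0.205). Of 4 other measured angiopoietin-like genes, 0 were called higher and 1 lower, with a median of -0.04. That gene was Angptl6 (-0.20 ± 0.05, adjusted p = 0.0431), whose call ended when N1, N2, T1 or T2 was left out (highest adjusted p = 0.136). Angptl8, for a secreted protein induced by feeding, had a log2 change of 0.00 ± 0.25, with an SD of 0.07 among not-injected and 0.59 among injected livers.

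On the activin side, Acvr2a and Acvr2b, for type II activin receptors and named after their values were seen, had changes of -0.27 ± 0.06 and -0.27 ± 0.07. Leaving out N1 or N3 ended the Acvr2a call (highest adjusted p = 0.0651), while its second probe set gave -0.29 (adjusted p = 0.0053). Leaving out N1, N3, T1 or T2 ended the Acvr2b call (highest adjusted p = 0.110). The count of 8 called receptors and partners was 5 when N3 was left out. Of 11 genes for other activin and inhibin subunits, their binding proteins and their signal transducers, 0 were called higher and 2 lower, with a median of 0.04. Inhba, for the activin A subunit, read 9.01, 9.04 and 8.92 in not-injected and 8.36, 8.21 and 8.34 in injected livers. It fell by 0.69 ± 0.06 (adjusted p = 4.31e-04), and its injected livers did not show the spread seen in Inhbe. Inhbc, for the activin C subunit, like Inhbe made mainly by hepatocytes, had a log2 change of -0.55 ± 0.17 that did not pass (adjusted p = 0.0604). Its SD was 0.07 among not-injected and 0.37 among injected livers, so a wider spread among injected livers was not particular to Inhbe. Fst, for the activin-binding follistatin, changed by -0.27 ± 0.07, and leaving out any mouse but N3 ended the call (highest adjusted p = 0.119). The count of 2 was 1 when N1, N2 or T2 was left out. Inhbb, for the activin B subunit, did not pass on its brighter probe set (-0.10), while its second gave -0.54 (adjusted p = 0.0429).

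**Figure D4:**
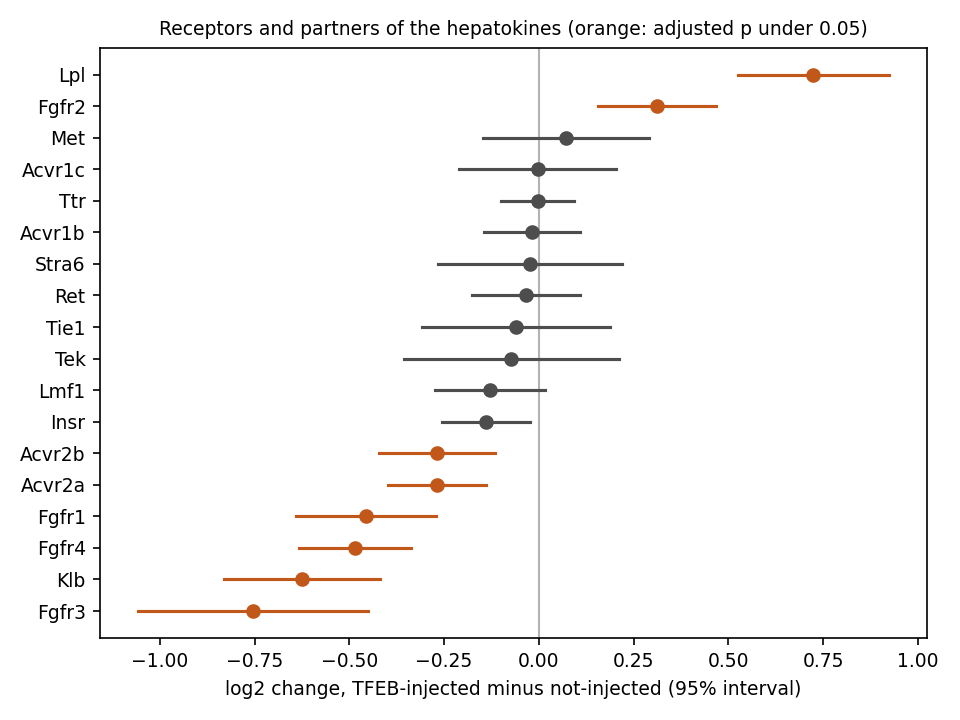
Log2 change (horizontal axis, TFEB-injected minus not-injected, n = 3 each) of the 18 measured receptor and partner genes on their brightest probe sets, with the 95% interval of the limma fit. Orange marks the 8 genes called, from Fgfr3 at -0.75 to Lpl at 0.72.

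Beside Rbp4, 13 other genes of retinoid handling were measured, of which 2 rose and 5 fell, with a median of 0.03. Cyp26a1, for the enzyme that breaks down retinoic acid, fell by 0.86 ± 0.07 (adjusted p = 2.58e-04), and Aldh1a1, for an enzyme that makes it, by 0.35 ± 0.05. Retsat, for retinol saturase, rose by 0.47 ± 0.05 on its brighter probe set and by 0.82 on the second (adjusted p = 8.62e-05), and Rarb, for a retinoic acid receptor, by 0.39 ± 0.06. The other 3 genes called lower were Lrat (-0.48 ± 0.10), for the enzyme that stores retinol as esters, Rdh10 (-0.24 ± 0.06) and Rbp2 (-0.24 ± 0.06), named after their values were seen. Leaving out N2 or T2 ended all 3 calls and left a count of 4 (highest adjusted p = 0.0580, 0.111 and 0.113). Lrat, also 1 of the stellate markers, is made by stellate cells. The mean level of these markers was 8.19 to 8.24 in not-injected and 8.11 to 8.16 in injected livers. That mean includes Lrat itself, so it is not separate from the Lrat change.

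Of 11 other measured liver-secreted regulators, 3 rose and 2 fell, with a median of 0.05. Over all tested genes, 9.99% were called higher and 7.92% lower. Smoc1, for a glucose-lowering hepatokine, rose by 0.56 ± 0.08 and Dpp4, for a peptidase that cleaves incretins, by 0.26 ± 0.04, though a second Dpp4 probe set gave -0.18 (adjusted p = 0.0776). Fgl1, for a fibrinogen-like protein and named after its value was seen, rose by 0.94 ± 0.16. Igfbp1, for an IGF-binding protein induced by fasting, fell by 0.59 ± 0.07, and Hamp, for the iron hormone hepcidin, by 0.36 ± 0.06. Of 5 other FGF ligands, Fgf1 fell by 0.46 ± 0.05 (adjusted p = 0.00108), 0 rose, and the median was -0.03.

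The pathways known to control Fgf21, Angptl4 and Inhbe were read from lists of their genes. Of 11 measured PPAR-alpha targets other than the members, 8 rose and 1 fell, with a median of 0.50, led by Vnn1 (5.01 ± 0.13) and Cyp4a14 (4.27 ± 0.20). The gene called lower was Ehhadh (-0.20 ± 0.05), and leaving out any mouse but T1 ended the call (highest adjusted p = 0.126). Angptl4, at 0.30, lay below that median, and Fgf21, at -0.23, on the other side of 0. Of 16 integrated stress response genes, 3 rose and 3 fell, with a median of 0.01. Nupr1 (3.34 ± 0.35), for a stress-induced chromatin protein, and Eif4ebp1 (0.42 ± 0.05), for a brake on translation, rose. The other 2 Eif4ebp1 probe sets gave 0.35 (adjusted p = 0.00671) and 0.05 (adjusted p = 0.629). Ddit3, for the stress factor CHOP, named after its value was seen, rose by 0.37 ± 0.06, while Ddit4 (-0.58 ± 0.07) and Cebpb (-0.34 ± 0.05) fell. The third gene called lower was Aldh18a1 (-0.17 ± 0.05), a call that ended when any mouse but T3 was left out (highest adjusted p = 0.159). Of its 4 other probe sets none passed, and 2 had the opposite sign. Nupr1 read 8.27, 8.98 and 9.85 in TFEB-injected replicates 1, 2 and 3, the reverse of the order of Inhbe. That reverse order was not particular to Nupr1, since the mean of the PPAR-alpha targets (11.28, 11.44 and 11.53) had it too.

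Of 18 measured regulators reported for hepatokine genes, 3 rose and 1 fell, with a median of -0.04. The coactivator gene Ppargc1a, whose product works with PPAR-alpha, rose by 2.25 ± 0.32, and Creb3l3, for a liver transcription factor that induces Fgf21, by 0.35 ± 0.06. Pparg (0.86 ± 0.21), named after its value was seen, was the third, and Mlxipl, for the carbohydrate-responsive factor ChREBP, changed by -0.47 ± 0.11. Leaving out N1, N2, N3 or T2 ended both the Pparg and the Mlxipl call and left a count of 2 (highest adjusted p = 0.106 and 0.0936).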

How the data were processed

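Per the labels' protocols, liver RNA was purified on columns and biotin-labelled for Affymetrix arrays. The authors processed them with affy and RMA, per the submitters' processing notes, which correct background, quantile-normalize and summarise probes; the deposited values are log2 expression levels from 3.08 to 15.20, versions not given. Shifts of total RNA are invisible on this scale. After 64 controls were removed, 20380 single-symbol probe sets for 12393 genes were tested, with the brightest probe set per gene.

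Injected were compared with not-injected livers (3 each) with limma 3.58.1 in R 4.3.3 (lmFit, eBayes, no block), Benjamini-Hochberg adjustment across the 12393 genes, and calls at 0.05. The fit was tested on simulated data. Changes are estimate ± SE, injected minus not-injected. Members, gene lists and motifs were chosen with earlier results of these data known. Genes outside the members were named as the 2 called genes of smallest p per direction and list (1 where none passed, and 1 per marker list), or chosen after their values were seen (Kng1, Ttr, Lmf1, Angptl8, Inhbc, Inhbb, Aldh18a1 and those so marked). Alternatives varied the probe set, normalization, filter, variance model, pairing, arrays, test and threshold. The number of arrays limits the precision. The p-values and SE rest on the spread between these mice, with the variance of each gene moderated toward that of all genes.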

Additional observations from a re-analysis of the deposited data

How the results depend on the processing

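Lect2 and Fetub kept their direction and their call under every alternative run, with log2 changes of -0.66 to -0.63 and -0.40 to -0.34. Ahsg and Rbp4 kept their direction and never passed. Ahsg came nearest with the unmoderated test (adjusted p = 0.0603) and with the intensity trend and robust prior of limma (adjusted p = 0.0689). The number of members called lower was 2, and 3 without not-injected replicate 3, where Fgf21 joined. The 1 member called higher became 0 when probe sets of a gene were averaged and without _x_at and _s_at probe sets. In the latter, Angptl4 is read from its dim probe set at -0.10 (adjusted p = 0.395). Leaving out each array put Inhbe between -0.20 and 0.30. The 2219 genes called in all became 1053 at an adjusted p under 0.01 and 3749 with array weights (gene-by-gene method, since the default did not converge). They ranged from 1229 to 2409 with an array left out. With the replicate number as a block, 1533 genes and the same 3 members were called. The main fit has no block because nothing in the labels says that the numbers pair mice. Deviations of same-numbered arrays from their group means correlated at 0.01, -0.13 and -0.11, and those of differently numbered arrays at -0.04 to 0.16. Fgf21 has no value under the filter on low levels, which removes it. Low probe signal limits what can be said of Fgf21 and the second Angptl4 probe set.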

Other observations

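The profiles closest to Inhbe over the 6 arrays, looked up after its spread was seen, were those of Cptp, for a ceramide-1-phosphate transfer protein (root mean square difference 0.04), and Cxcl10, for an interferon-induced chemokine (0.04). Relative to their not-injected means, Cptp stood at 0.41, 0.19 and -0.49 and Cxcl10 at 0.47, 0.12 and -0.60 in TFEB-injected replicates 1, 2 and 3. Inhbe stood at 0.45, 0.14 and -0.54. The shared order follows from picking the closest profiles over these same arrays. Within 0.1 of the Inhbe profile lay 13 genes, against 790 for Angptl4, 328 for Fetub and 52 for Lect2. The limit was the same for large and small shifts, so these counts depend on the size of a profile's shifts as well as on its shape.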
